A study of Drosophila melanogaster with 24 samples.

Results

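CYC (CYCLE) was mapped in fly bodies by pulling down a V5-tagged form of the protein with an antibody against the tag, and the sites found are set here against a mock pull-down with the same antibody from bodies of flies that carry no tag. The material is the 2 peak lists of body CYC and the 2 peak lists of body mock, chosen by their labels. They hold 5243 CYC peaks and 248 mock peaks, out of 58157 peaks in the 12 lists of the series. The series covers heads and bodies with V5-tagged CLK, V5-tagged CYC or no tag, in 24 libraries that include an input for every pull-down. The body CYC group comes from the strain labelled cyc, which the design text describes as carrying the V5 tag, and the body mock group comes from w- flies without it. Both groups were adult flies of 5 to 10 days, raised at 25 °C in 12 h of light and 12 h of darkness and frozen at ZT13, which is 1 h after lights-off. Fixation took 10 min in 1% formaldehyde, and 4 sonication rounds of 1 min followed, in both groups alike. The labels do not say whether the tag sits on a transgene or on the native gene. Bodies were ground whole, so a site cannot be placed in any one of the tissues of the body.

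CYC is a bHLH-PAS transcription factor. In the fly clock it pairs with CLK, and the pair binds E-box elements and drives transcription in the evening and early night. Its best known targets, period, timeless, vri and Pdp1, encode proteins that feed back on the pair, and clocks of this kind run in many tissues of the body as well as in the brain. The positions below are in dm3 and as the lists give them. They were not assigned to genes, because the gene table at hand is for another assembly (Release 6).

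The body CYC lists were far longer than the body mock lists in both replicates. CYC gave 3967 and 1276 peaks in replicates 1 and 2, against 73 and 175 peaks in mock. The lists of each group therefore did not overlap in length, and the shorter CYC list was still 7.29-fold longer than the mock list of its number, against 54.3-fold in replicate 1. The replicates are independent, so matching lists by number is a description only. On average CYC gave 2622 ± 1903 peaks and mock 124 ± 72.1 (SD, n = 2 each), a difference of 4.30 on the log2(peaks + 1) scale. An exact two-sided permutation test over the 4 lists gave p = 0.3333, the smallest that 6 arrangements allow, so 2 lists against 2 cannot pass 0.05. The number of reads behind each list is unknown, and a list's length depends on it.

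Each peak carries 2 values in the authors' own unit, of unknown scale and both at 2 or above, called here the first and the second score. They are the authors' values and serve to rank and describe peaks within a list. Where scores of different lists stand side by side, they are a description, since it is not known whether the lists share a scale. By the median the CYC and mock lists did not separate, with first scores of 6.60 and 5.81 in the CYC lists and 8.44 and 3.37 in the mock lists. The highest first scores were 1786 and 1217 in CYC, against 55.9 and 69.7 in mock. On the main chromosome arms the mock maximum was 41.2 and 17.4. In CYC replicates 1 and 2, 85 and 46 peaks stood above 41.2, as did 7 peaks of each mock list, all off the main arms. Above 69.7, the highest mock score anywhere, stood 41 and 22 CYC peaks.

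**Figure D1:**
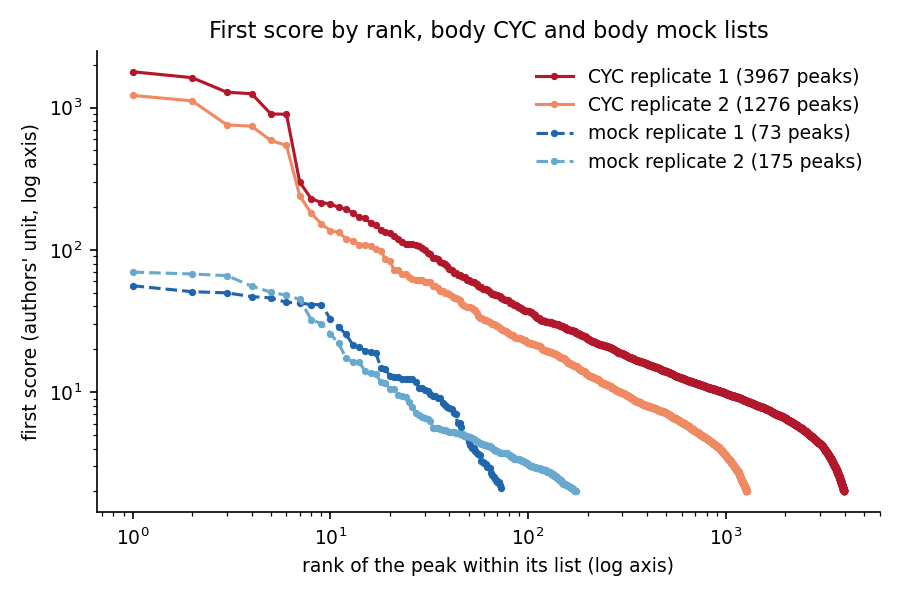
First score of every peak (authors' unit, log axis) against its rank in its own list (log axis) for the 2 body CYC lists (solid) and the 2 body mock lists (dashed). In both CYC lists 6 peaks stand above a step, at 541.1 or more, while the mock lists begin at 55.9 and 69.7.

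In both CYC lists the same 6 regions stood apart from all others. A region here is a stretch where peaks of the 4 lists overlap by 1 bp or more, and its score in a list is that of its strongest peak. The strongest was 2L 3507275 to 3507569, at 1786 and 1217 in CYC replicates 1 and 2. It ranked first in both lists, and its second scores were 371.3 and 202.1. Next came 3L 7828205 to 7828499 at 1622 and 1114, and 3L 7826794 to 7827088 at 1281 and 739.4. These 2 lie in one cluster. A further 2 share a cluster on 2L: 2L 5303200 to 5303494 scored 1251 and 755.5, and 2L 5305501 to 5305795 scored 896.3 and 587.0. The sixth was X 2578943 to 2579237, at 902.4 and 541.1. Neither mock list had a peak at any of the 6. The step below them was steep, since the seventh region, 3R 278216 to 278510, scored 299.1 and 240.1, against 896.3 and 541.1 for the lowest of the 6 in each list.

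Below that step the scores fell smoothly and the order stayed close between replicates. Regions are placed by mean rank over both CYC lists, which favours regions with close ranks. Places 8 to 20 by mean rank began with 2L 5301339 to 5301633 at 229.0 and 152.1 in CYC replicates 1 and 2, and ended with 3L 8676005 to 8676299 at 109.8 and 83.7. Several sit in the clusters of the leading regions: 2L 5303812 to 5304106 (210.3 and 108.1), 2L 5302678 to 5302972 (153.3 and 107.2) and 3L 7826187 to 7826481 (148.2 and 108.5). On 3R, 20394212 to 20394506 scored 214.8 and 132.8, and 20401502 to 20401796 in the same cluster scored 131.3 and 98.1. The others on 3R were 5795119 to 5795413 (193.5 and 136.3), 22974448 to 22974742 (168.7 and 116.0) and 21954142 to 21954436 (167.3 and 100.5). The remaining members were 2L 12003058 to 12003570 (198.6 and 180.3), 3L 8678379 to 8678673 (182.1 and 119.7) and 2R 14540423 to 14540717 (137.5 and 86.2). In replicate 1 the first score was higher at all 20 best regions, by 1.10-fold to 1.95-fold. Peak midpoints in the replicates lay a median of 8 bp and at most 26 bp apart at these 20 regions. No mock peak of either list lay within 1000 bp of any of them.

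Of the 4507 regions formed from the 4 lists, 699 (15.5%) had a peak in both CYC lists and in neither mock list. A further 8 had a peak in both CYC lists and in mock replicate 2. CYC replicate 1 alone, without CYC replicate 2 or a mock peak, accounted for 3031 regions, and CYC replicate 2 alone for 539. Only 3 regions (0.0666%) had a peak in both mock lists and in no CYC list. The number of CYC regions rests on asking for both replicates. Without CYC replicate 2 there were 3755 regions free of mock peaks, and without CYC replicate 1 there were 1243.

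Whether a CYC peak was found again in the other replicate followed its strength. The 101 strongest peaks of CYC replicate 1 all overlapped a replicate 2 peak. On the main arms the 160 strongest peaks of CYC replicate 2 all overlapped a replicate 1 peak. By deciles of the list, the share of CYC replicate 1 peaks found in replicate 2 was 77.0% (95% Clopper-Pearson interval 72.6 to 81.1) in the strongest decile, 36.0% in the next and 19.9% in the third. It lay between 7.05% and 8.33% in each of the 5 weakest deciles. For CYC replicate 2, the shorter list, the share in replicate 1 was 96.9% (92.1 to 99.1) in the strongest decile and still 27.3% (19.8 to 35.9) in the weakest. The intervals cover counting error only. Ranked by the second score, 67% and 85% of the 100 best peaks of CYC replicates 1 and 2 were found again, against 100% and 96% by the first score. The first score was preferred after its highest peaks had been seen to coincide, which favours it here.

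**Figure D2:**
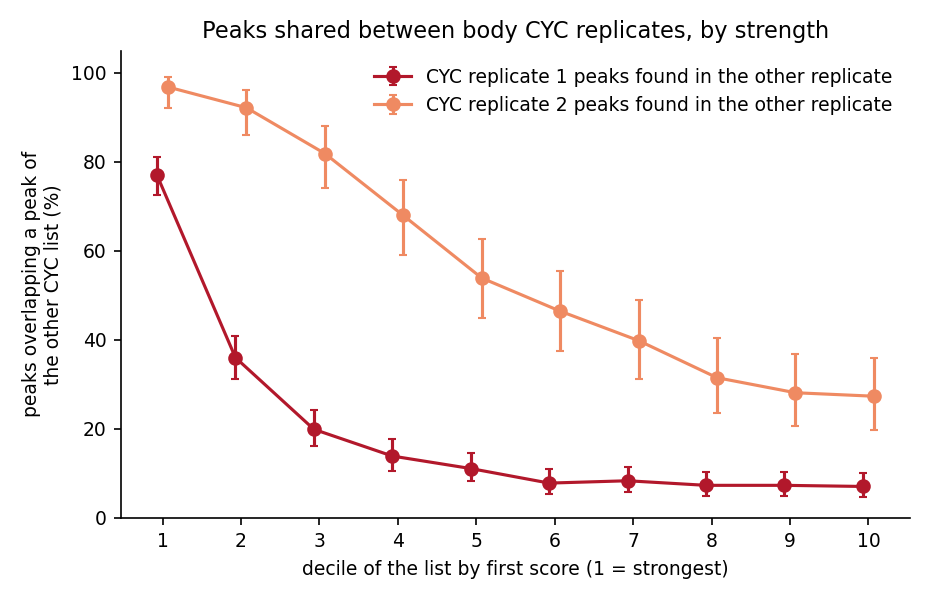
Share of peaks of each body CYC list that overlap a peak of the other CYC list (y, %), by decile of the list from strongest to weakest (x), with 95% Clopper-Pearson intervals for counting error. Replicate 1 falls from 77.0% to 7.05% and replicate 2 from 96.9% to 27.3%.

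Across the 707 regions with a peak in both CYC lists, Spearman's rho between the first scores of the replicates was 0.75, a description over regions that share 2 libraries. The score was higher in replicate 1 at 580 of them (82.0%). Over all 707 the median ratio of replicate 1 to replicate 2 was 1.59, with quartiles of 1.15 and 2.14. Among regions without a mock peak the median ratio was 0.85 at places 601 to 699. It was 1.52 to 1.86 in the classes of 100 above. Place is the mean of ranks in lists of 3967 and 1276 peaks, so the last places favour regions with low replicate 1 scores. The ranking rule by itself lowers the ratio there. Position was shared more tightly at strong regions. The median distance between replicate midpoints was 10.5 bp at the 100 best regions without a mock peak, 33.5 bp at places 201 to 300 and 64 bp at places 601 to 699. Most regions held 1 peak of each list, while 72 held 2 or more replicate 1 peaks and 14 held 2 or more replicate 2 peaks.

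**Figure D3:**
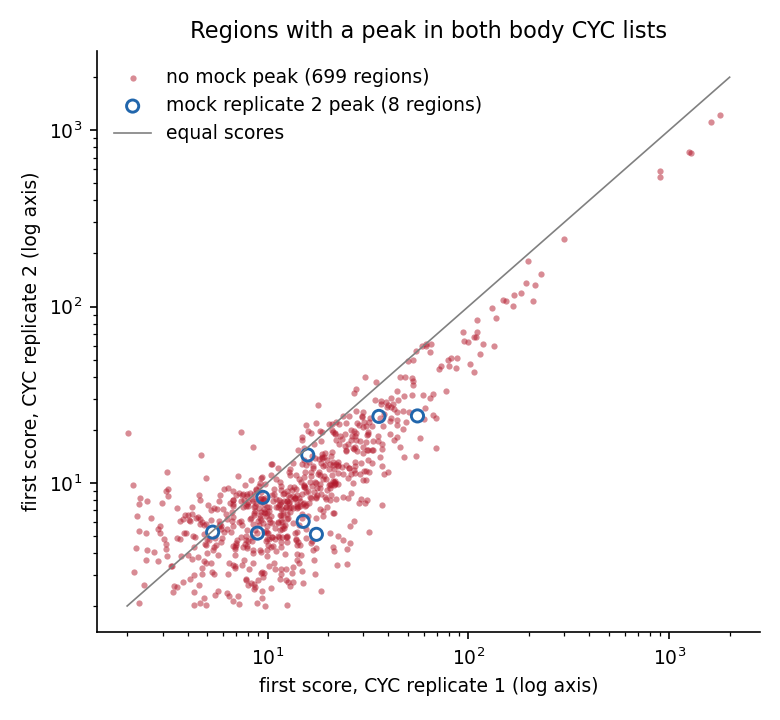
First score in CYC replicate 1 (x, log axis) and CYC replicate 2 (y, log axis) for the 707 regions with a peak in both body CYC lists. Most points lie below the line of equal scores, the 6 leading regions lie at the top right, and the 8 regions that also have a mock replicate 2 peak (blue circles) score between 5.33 and 55.8 in replicate 1.

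The strongest peaks that one CYC list had and the other lacked differed in kind between the replicates. In CYC replicate 2 the first 4 lay on the scaffold XHet, at ranks 47, 52, 59 and 67 with first scores of 40.6, 39.3, 32.7 and 30.0. Each of the 4 overlapped a mock peak. Their second scores, 2.05 to 3.48, were close to the floor of 2. The fifth was 3R 20391687 to 20391981 at rank 165 and 15.7, which lay 460 bp from a replicate 1 peak. In CYC replicate 1 the first was 2L 479090 to 479318 at rank 102 with 36.8, only 14 bp from a replicate 2 peak. It was followed by 3L 3320541 to 3320769 (31.0), X 12695484 to 12695712 (30.8), 3L 1205351 to 1205579 (30.7) and 2R 18199550 to 18199778 (29.7). Those 4 lay 11225 bp or more from any replicate 2 peak and overlapped no mock peak. Of the 3055 CYC regions with replicate 1 peaks only, 24.6% lay within 5000 bp of a region found in both, and of the 546 with replicate 2 peaks only, 23.8% did.

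The mock peaks that both body mock replicates shared were all on XHet, and CYC replicate 1 had no peak there. There were 6 such regions, with first scores of 41.1 to 55.9 in mock replicate 1 and 44.9 to 69.7 in mock replicate 2. CYC replicate 2 had a peak in 3 of them, at XHet 190258 to 190757, 191683 to 192098 and 195630 to 195995, with 39.3, 30.0 and 40.6. Neither CYC list had a peak in the other 3, at 191121 to 191388, 194341 to 194885 and 195336 to 195617. CYC replicate 1 had 0 XHet peaks and CYC replicate 2 had 6, against 10 and 11 in the mock lists. XHet is a scaffold of heterochromatin of the X chromosome. Regions with a peak in both CYC lists did not include any on XHet, so these peaks touch none of the 699.

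Regions with a peak in either mock list made up 5.28% of the 4507, a share that includes those with a mock peak alone. Among CYC regions a mock peak was present at 8 of the 707 (1.13%, 0.490 to 2.22) with a peak in both CYC lists, at 0.786% of those in CYC replicate 1 only and at 1.28% of those in CYC replicate 2 only. The 95% interval covers counting error only, and the shares were not tested against each other. Of the main-arm mock peaks, 11 of 63 in replicate 1 and 24 of 163 in replicate 2 overlapped a peak of either CYC list. In each of the 8 regions the mock peak came from replicate 2, and none came from mock replicate 1. The strongest of the 8, 2L 6088133 to 6088674, scored 55.8 and 24.0 in CYC, against 13.3 in mock replicate 2. There the mock peak only touched the CYC peaks, with 5 and 11 bp in common and midpoints 238 and 265 bp apart. The next, 3R 24984470 to 24984805, scored 35.9 and 23.8 in CYC, against 3.92 in mock, with midpoints 84 and 59 bp apart. The other 6 were a pair on 2L (166359 to 166946 and 1185610 to 1185994), one on 2R (10460358 to 10460714), one on 3L (21001757 to 21002205), one on 3R (25594408 to 25594950) and one on X (19062031 to 19062340). At these CYC scored 5.33 to 17.5 in replicate 1 and 5.10 to 14.4 in replicate 2, against 2.15 to 9.26 in mock. A CYC replicate 1 peak found in replicate 2 is called reproducible here, and 8 of 776 such peaks had a mock peak. With midpoints within 100 bp as the rule, 4 reproducible CYC peaks had a mock peak. A few strong CYC regions had a mock replicate 2 peak beside them without overlap: 2L 4811780 to 4812074 (118.7 and 61.5 in CYC) at 64 bp, and 2L 6612335 to 6612629 (114.2 and 53.8) at 11 bp. These 2 were chosen after their values were seen. Within 1000 bp, 17 of the 707 CYC regions (2.41%) had a mock replicate 2 peak and 4 (0.566%) a mock replicate 1 peak.

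CYC regions were grouped in clusters, and the strongest more than the rest. With neighbours joined where the gap was at most 5000 bp, 297 of the 699 regions (42.5%, 38.8 to 46.2) fell into 103 clusters and 402 stood alone. Most clusters were small: 68 held 2 regions, 19 held 3, and 16 held 4 to 14. The median gap inside clusters, held to at most 5000 bp by the rule, was 827 bp. Between all neighbours it was 50318 bp. All 6 leading regions were in clusters, 4 clusters in all, and 19 of the 20 best regions were. The exception was 2R 14540423 to 14540717. Of the 100 best regions 66 were in clusters, against 21 of the 99 at places 601 to 699. Between them the counts did not fall steadily, at 42, 48, 49, 31 and 40 of each 100. A larger set of neighbours makes clusters more likely, so each class was also taken alone. Then 37 of the 100 best regions had a neighbour among themselves, 11 of the next 100 did, 6 to 14 of each later 100 did, and 0 of the last 99. The 37 formed 11 clusters, the largest of 9 regions.

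**Figure D4:**
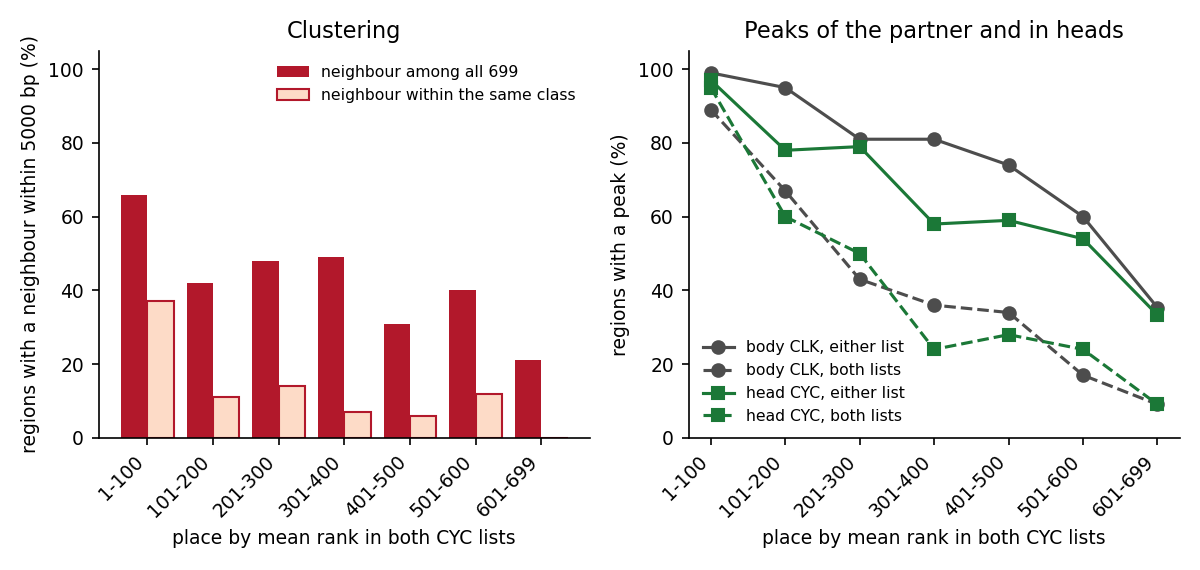
Left, share of body CYC regions with another region within 5000 bp (y, %) by place in classes of 100 (x), counted among all 699 regions (dark) or within the same class (pale). Right, share of the same classes with a body CLK or head CYC peak in either list (solid) or both lists (dashed); the 100 best lead in every measure, at 66%, 37%, 99%, 89%, 97% and 95% in the order of the legends.

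The cluster with the most regions spanned 2L 5288795 to 5306877, or 18082 bp, and held 14 regions, of which 10 were among the 100 best. Around 5303200 it was dense: 7 regions in a row, with first scores of 229.0, 58.6, 153.3, 1251, 210.3, 71.7 and 896.3 in CYC replicate 1 and 152.1, 59.8, 107.2, 755.5, 108.1, 44.2 and 587.0 in CYC replicate 2. The scores rose and fell in the same order along the stretch in both replicates. Farther out on the low side the members were weaker. The lowest in replicate 1 was 2L 5290142 to 5290574 (4.20 and 7.27), and the lowest in replicate 2 was 2L 5292818 to 5293333 (8.47 and 3.99). Gaps between neighbours ran from 228 to 3559 bp.

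On 3L the cluster at 7819753 to 7830358 held 9 regions over 10605 bp. Its 2 leading members, 1411 bp apart by their centres, were flanked by regions of 148.2 and 108.5 on one side and 27.9 and 21.9 on the other. The cluster at 2L 3504676 to 3508858 held 5 regions, and there a single region dominated: the second strongest, 2L 3507993 to 3508287, scored 79.5 and 49.9. Its leader scored 107-fold and 89.4-fold above the median of the other members in CYC replicates 1 and 2. In the X cluster, 2578943 to 2581592, 4 regions lay within 2649 bp, with the leader at one end and the others at 442, 936 and 2355 bp from it. All 4 were among the 100 best regions.

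**Figure D5:**
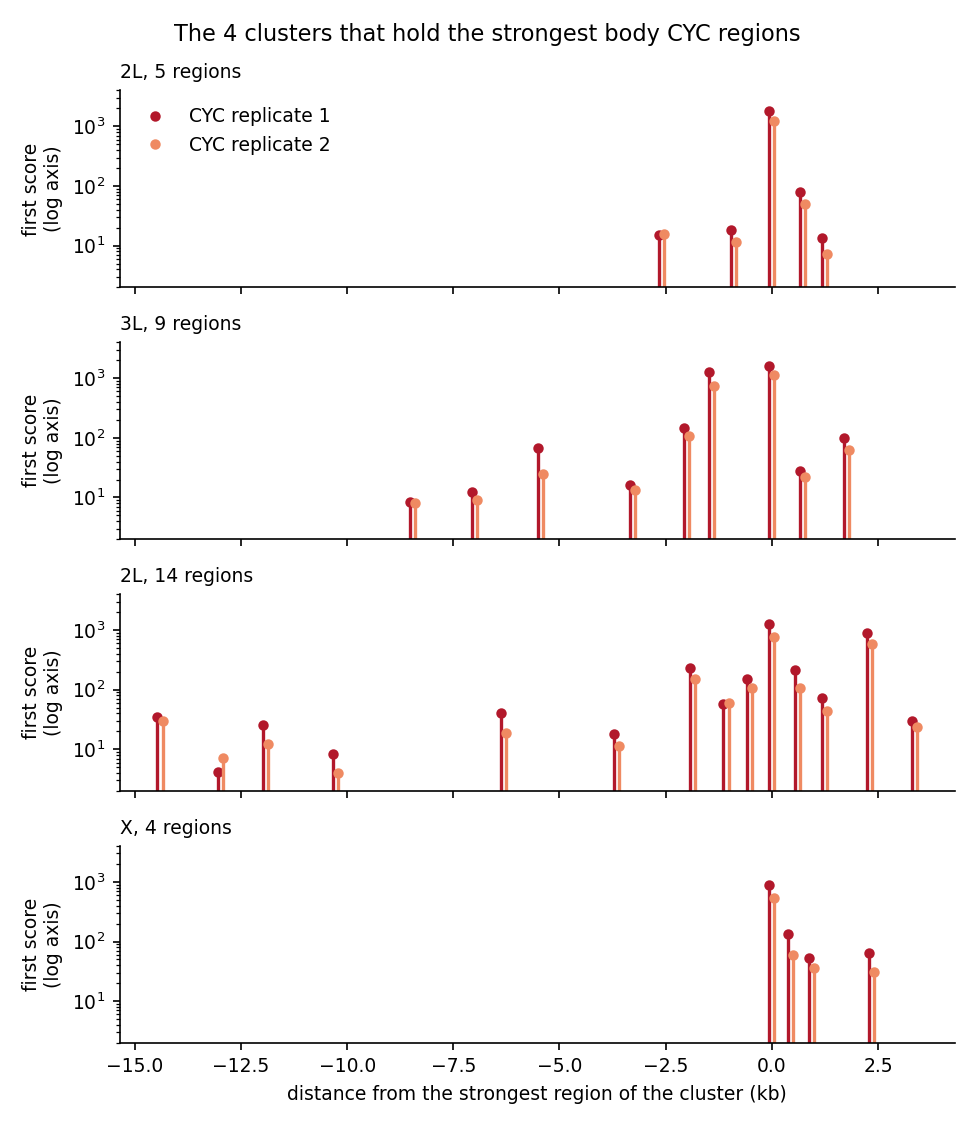
First score (authors' unit, log axis) in CYC replicates 1 and 2 of every region of the 4 clusters that hold the 6 strongest body CYC regions, by distance from the strongest region of the cluster (x, kb); stems only guide the eye. The same region leads each cluster in both replicates, and the clusters hold 4 to 14 regions.

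The other large clusters were led by weaker regions. On 2R, 14687952 to 14695479 held 9 regions led by 14691279 to 14691573 at 106.5 and 42.5, with 4 among the 100 best. The 9 regions of 3L 8684770 to 8698458 had first scores of 7.89 to 37.2 in CYC replicate 1 and 4.27 to 17.4 in CYC replicate 2. Its best region by mean rank had 27.7 and 17.4, or 1.27-fold and 1.68-fold the median of the others, and none was among the 100 best. Each of 3R 20392481 to 20401796 and 3R 21943116 to 21954436 held 7 regions. In the first, the leader at 214.8 and 132.8 and the region of 131.3 and 98.1 stood at 7290 bp from each other with weak members of 7.14 to 13.1 in CYC replicate 1 between them. In the second, the leader at 167.3 and 100.5 lay at one end and the rest scored at most 31.6 and 17.5. The clusters of 6 were 3R 6214415 to 6220293 (leader 41.4 and 23.4), 3R 7581712 to 7585523 (37.9 and 24.4) and 2R 7517065 to 7527385 (21.6 and 18.9). By size of cluster, median first scores in CYC replicates 1 and 2 were 25.2 and 15.3 for regions in clusters of 4 or more, 14.0 and 8.15 in clusters of 3, 13.9 and 7.68 in clusters of 2, and 11.7 and 7.38 for single regions.

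Clustering as such was also seen in the mock lists. With each CYC list shortened to its 73 best peaks, 41.7% and 42.5% of its regions were clustered, against 37.5% in mock replicate 1. At 175 peaks the CYC shares were 41.0% and 34.9%, against 10.3% in mock replicate 2. Of the clustered mock regions, 9 of 27 in replicate 1 and 10 of 18 in replicate 2 lay on XHet, where CYC replicates 1 and 2 had 0 and 4 among the 73 best. The comparison at equal length was added after the values were seen and has no test.

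The arms shared the CYC regions unevenly in strength. Of the 699 regions 195 were on 3R, 150 on 3L, 135 on 2R, 122 on 2L, 95 on X and 2 on chromosome 4. Among the 100 best, 2L had 31 and 3R 26, while 3L had 16, 2R 15, X 12 and chromosome 4 none. Of the 31 on 2L, 10 belonged to the single cluster at 5288795 to 5306877. No CYC region of the 2R arm ranked above place 18. Chromosome 4 held 14 of 3967 and 8 of 1276 CYC peaks, against 14 of 73 and 2 of 175 mock peaks. The share of mock peaks on this arm thus rests on mock replicate 1.

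Peaks of CLK in the same tissue lay at most strong CYC regions and at fewer weak ones. Of the 100 best CYC regions, 99% had a peak in either body CLK list and 89% in both. At places 601 to 699 the shares were 35.4% and 9.09%. Over the 707 regions with a peak in both CYC lists the share with a CLK peak in either list was 75.1% (71.7 to 78.3), against 33.4% of regions in CYC replicate 1 only and 18.9% of those in CYC replicate 2 only. Over all 4308 merged CYC regions it was 38.4%, and 11.9% had a CLK peak in both lists. The one region of the 100 best with no CLK peak was 3R 17018866 to 17019173, at 42.5 and 26.1, which also had no head CYC peak. Head CYC lists had a peak at 97% of the 100 best body CYC regions in either list and at 33.3% of places 601 to 699. Over all 4308 merged CYC regions that share was 34.5%, and 12.7% had a head CYC peak in both lists. The best body CYC regions without a head CYC peak were 2L 3312542 to 3312836 (93.6 and 72.1) and 3L 8675426 to 8675720 (87.5 and 51.0). Those 3 were named after their values were seen. CLK and head lists differ in length from the CYC lists, and a missing peak means only that none was called. Heads were also sonicated in more rounds than bodies, so tissue and preparation cannot be told apart in the head comparison.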

How the data were processed

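ChIP-seq peaks of V5 pull-downs from fly bodies (CYC and untagged mock, 2 replicates each) were analysed. Per the submitters' processing notes, reads were mapped with Bowtie 0.12.7 to dm3. The file names pair each pull-down with its own input, with each replicate called alone. No source used here names the caller or its threshold. The deposited lists give positions and 2 score columns without a name, both treated as a score of unknown scale. Peaks within a list had one width (228 and 294 bp in CYC, 242 and 258 bp in mock). Depth per library is unknown.

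Peaks were taken to overlap at 1 bp or more, merged into regions, ranked by the first score and clustered at gaps of at most 5000 bp. Mock regions were removed. Peak numbers were compared as log2(peaks + 1) by an exact permutation test. Replicates are independent biological replicates per the design text, and the main test did not pair them by number. Only the folds in list length and the replicate block set lists of the same number together. The rule for named regions took the 20 best mean ranks over both CYC lists, regions in both mock lists, CYC regions with a mock peak, the 5 best unmatched peaks of each CYC list and the 10 largest clusters. The regions, lists and rules were chosen with earlier results of these data known. Python 3.11.15, numpy 2.4.6, pandas 2.3.3 and scipy 1.17.1 were used. Merging and clustering were tested on simulated lists. Alternatives covered the overlap rule, score threshold, scaffolds, list length, cluster gap, mock removal, ranking score and single libraries. Genes and sequences were not analysed here, since no dm3 annotation or genome was at hand.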

Additional observations from a re-analysis of the deposited data

How the results depend on the processing

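The log2 difference in peak number between CYC and mock kept its direction in every alternative run. Without single libraries it was 3.48 to 5.12. There the direction could not change, since both CYC lists were longer than both mock lists. The replicate block leaves the difference at 4.30 by its design, and the exact permutation p was 0.5 over 4 arrangements. Of 97 alternative values 66 stayed close to the reported one and 31 did not, and the cause was not tested. A count was called close when it lay within 1.5-fold of the reported one. The 66 include values that could not move, such as those taken from the CYC lists alone when a mock list was left out. Leaving out single libraries gave 699 to 3755 CYC regions, 103 to 787 clusters with 14 to 22 regions in the largest, 42.0% to 69.7% of regions in clusters, 40.9% to 75.1% with a CLK peak, 34.7% to 65.5% with a head CYC peak and 0 to 8 reproducible CYC peaks with a mock peak, against 8 of 776. The high counts are those of CYC replicate 1 on its own. With midpoints within 100 bp, the share of the shorter CYC list found in the longer was 46.1%, against 56.6% in the main run. Reproducible peaks with a mock peak then numbered 4, and 96% of the 100 best replicate 1 peaks were found again. Above the median first score of the 4 lists there were 465 reproducible peaks, 2 of them with a mock peak. Of the shorter CYC list, 74.6% was found in the longer. There were 427 regions and 61 clusters, with a CLK peak at 80.8% of regions and a head CYC peak at 58.3%. On the main arms alone 100% of the 100 best replicate 2 peaks were found again. At equal list length the shares were 40.5% of the shorter list, 85.4% with CLK and 73.7% with head CYC. Reproducible peaks there numbered 539, with 501 regions and 72 clusters, the largest of 10 regions. In the main run these were 776, 699, 103 and 14, and the lower counts were still called close. Gaps of at most 2000 bp put 34.5% of regions in clusters, the largest of 9, and gaps of at most 10000 bp put 51.6%. By the second score 67% and 85% of the 100 best peaks of CYC replicates 1 and 2 were found again. Depth is unknown, so its part in the counts of peaks was not tested.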

Other observations

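The second score ordered the CYC peaks differently from the first. The lists had 44 and 51 peaks in common between the 100 best by either score in CYC replicates 1 and 2, and Spearman's rho between the scores across peaks was 0.44 and 0.45, against -0.15 and -0.07 in mock replicates 1 and 2. Some CYC regions below the leaders by the first score were among the first by the second. 3R 17661526 to 17661754 had a second score of 231.5 at a first score of 45.5 in replicate 1, and 3R 17661517 to 17661811 had 179.1 at 40.0 in replicate 2. In replicate 2 the highest second score, 332.8, belonged to 2L 8329313 to 8329607, whose first score of 59.5 ranked 31. In replicate 1 the peak at 3L 8675485 to 8675713 came second at 296.4, with a first score of 87.5. These regions were chosen after their values were seen.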
